A study of Mus musculus with 8 samples.

Results

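The genes described here are 10 that build or control the MHC class I display of peptides: the heavy chains *H2-K1* and *H2-D1*, the light chain *B2m*, the transporter subunits *Tap1* and *Tap2*, tapasin (*Tapbp*), the immunoproteasome subunits *Psmb8*, *Psmb9* and *Psmb10*, and the transactivator *Nlrc5*. They were chosen by name and function, with earlier results of these data known, and each matched 1 row of the 54532 genes in the table. All 10 also passed the filter for testing (2 or more libraries with an FPKM of 0.5 or higher), as did 15708 genes in all. The cells were MICFs, cardiac fibroblasts isolated from infarcted hearts of adult C57BL/6 mice, and every library carried the labelled genotype MGTMyoS overexpression, meaning doxycycline-inducible lentiviral *Mef2c*, *Gata4*, *Tbx5*, *Myocd* and *Sall4* together with eGFP. Infected MICFs were either injected into infarcted hearts (*in vivo* samples) or kept in culture (*in vitro* samples), and eGFP+ cells were sorted on Day 7 (1 week) or Day 14 (2 weeks), with 2 libraries in each of the 4 groups. Recipient mice received doxycycline in drinking water and the immunosuppressants tacrolimus, methylprednisolone and mycophenolate mofetil. The culture medium held doxycycline, the TGF-β receptor inhibitor SB431542 and the JAK inhibitor baricitinib. The place of the cells, these drugs and the medium therefore cannot be told apart wherever *in vivo* and *in vitro* samples are compared. There was no library of unreprogrammed MICFs or of untreated cells, and the animals or wells behind each replicate were not stated, so p-values measure the spread between these libraries, which may be technical.

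MHC class I molecules sit on the surface of nearly all nucleated cells and show short peptides from inside the cell to CD8 T cells and natural killer cells. Proteasomes cut proteins into peptides, TAP carries the peptides into the endoplasmic reticulum, tapasin and its partners load them, and the loaded heavy chain with β2-microglobulin then travels to the surface. Interferons raise many of these genes in most cell types through IRF1 and NLRC5, and baricitinib acts on the Janus kinases that interferon receptors use. In fibroblasts the basal level of the pathway is usually modest and inducible.

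Between 12304242 and 14546904 fragments per library fell on genes, and 1 fragment on a gene of 1 kb was worth an FPKM of 0.0650 to 0.0905. FPKM, which divide fragments by gene length and by depth, allow levels to be compared between genes as well as between libraries. The deposited FPKM also carry a scaling between libraries, which lowers the *in vitro* values relative to the *in vivo* values. Without it the median log2 difference over all tested genes was -0.337 in place of -0.006 at 1 week, and -0.325 in place of -0.003 at 2 weeks. A gene was called where its adjusted p was under 0.01 and its log2 difference was beyond 1 in size. The share of called genes that were higher *in vivo* was then 36.8% in place of 60.6% at 1 week, and 33.1% in place of 52.8% at 2 weeks. Replicates differed by more than sampling noise in every group (chi-square 4.99 to 10.9 per gene). The fibroblast label was borne out by *Col1a1*, *Pdgfra* and *Tcf21*, which were detected in all 8 libraries (*Pdgfra* at an FPKM of 19.8 to 27.8), but macrophage genes were abundant too, with *Lyz2* at an FPKM of 975 to 4014. In bulk RNA, fewer cells of a type and less RNA per cell cannot be told apart.

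Most of these genes lie in the MHC on chromosome 17, and 4 of them are packed side by side. On GRCm38, *Psmb9* (chr17:34181988-34187764, minus strand), *Tap1* (chr17:34187553-34197225), *Psmb8* (chr17:34197721-34201454) and *Tap2* (chr17:34203527-34216321) follow one another. Across *Psmb8* and *Tap2* the opposite strand holds *Gm20496* (maximum FPKM 0.116), and across *Tap2* also *Gm15821* (maximum FPKM 0.190), both too low to be tested. *Psmb9* and *Tap1* are read in opposite directions, and their ends as given in the deposited table overlap by 212 bases. *Tapbp* (chr17:33915899-33929288) and *H2-K1* (chr17:33996017-34000333, minus strand) lie on one side of this block and *H2-D1* (chr17:35262730-35267499) on the other. The remaining members are *B2m* (chr2:122147686-122153083), *Psmb10* (chr8:105935735-105938444, minus strand) and *Nlrc5* (chr8:94434356-94527272). The strand setting of the counting is not given in the sources used here, so reads in such overlaps cannot be assigned to 1 gene with certainty.

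The RefSeq promoter table (GRCm38.p6, 250 bases before to 50 after each start) held 8 of the 10 genes, without *Nlrc5* and *Tap2*. Windows were searched on both strands for the NF-kB consensus, for GAAANNGAAA (the core of the interferon-stimulated response element, ISRE), for the shorter-spaced GAANNGAAA and for TTCNNNGAA (the gamma-activated site, GAS). GAANNGAAA was added after the first 3 had been searched. The NF-kB consensus was found in *H2-K1*, *H2-D1* and *B2m*, against 8.46% of all 32851 promoter windows. GAAANNGAAA was found in *B2m* alone of the 8 genes (3.44% of all windows), GAANNGAAA in *H2-K1* and *H2-D1* (7.52%) and TTCNNNGAA in *Psmb8* alone (8.30%). These are matches of letters in a window, and binding was not measured here.

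The first sequence shown is the stretch of 225 bases between the RefSeq starts of *Psmb9* and *Tap1* (chr17:34187331-34187555, plus strand), since both genes are read outward from it and both were called higher *in vivo* at 1 week. The *Psmb9* coordinates of the deposited table reach beyond this RefSeq start and span the stretch. No searched motif was found in it. The others are the 250 bases upstream of the RefSeq starts of *H2-K1* (chr17:34000348-34000597, minus strand), *H2-D1* (chr17:35262844-35263093), *B2m* (chr2:122147437-122147686) and *Psmb8* (chr17:34197945-34198194), shown because they hold a searched motif. All are written 5′ to 3′ in the direction of the gene, or of *Tap1* for the first, and capitals mark the motif matches. In the deposited table *H2-D1* starts at 35262730 and *Psmb8* at 34197721, so their stretches lie inside the genes as given there.
Psmb9-Tap1 interval: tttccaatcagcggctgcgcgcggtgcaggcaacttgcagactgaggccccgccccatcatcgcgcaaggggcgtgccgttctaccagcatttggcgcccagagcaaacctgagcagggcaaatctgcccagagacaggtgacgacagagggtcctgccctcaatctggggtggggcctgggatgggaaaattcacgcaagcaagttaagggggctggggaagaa
H2-K1: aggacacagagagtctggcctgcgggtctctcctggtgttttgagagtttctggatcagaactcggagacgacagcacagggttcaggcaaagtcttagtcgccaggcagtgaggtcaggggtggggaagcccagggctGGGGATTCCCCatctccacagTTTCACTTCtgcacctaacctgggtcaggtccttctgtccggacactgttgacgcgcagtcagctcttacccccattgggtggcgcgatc
H2-D1: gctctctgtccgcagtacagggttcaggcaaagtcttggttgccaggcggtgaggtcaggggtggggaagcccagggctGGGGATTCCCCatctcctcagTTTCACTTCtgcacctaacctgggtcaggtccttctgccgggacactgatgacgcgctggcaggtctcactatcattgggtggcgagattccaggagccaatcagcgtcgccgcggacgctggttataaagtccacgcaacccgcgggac
B2m: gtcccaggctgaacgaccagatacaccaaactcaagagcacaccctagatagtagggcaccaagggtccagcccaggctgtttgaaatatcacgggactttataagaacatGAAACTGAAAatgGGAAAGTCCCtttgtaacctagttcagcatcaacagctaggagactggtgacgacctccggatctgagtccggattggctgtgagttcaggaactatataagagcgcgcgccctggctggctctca
Psmb8: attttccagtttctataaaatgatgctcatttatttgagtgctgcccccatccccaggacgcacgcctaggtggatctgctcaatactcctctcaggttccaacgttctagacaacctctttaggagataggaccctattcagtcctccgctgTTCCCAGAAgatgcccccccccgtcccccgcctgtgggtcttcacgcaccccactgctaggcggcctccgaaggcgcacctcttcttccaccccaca
In *H2-K1* the NF-kB match spanned -111 to -101 from the start used here (34000347) and the GAANNGAAA match (read on the opposite strand) -90 to -82. From the other RefSeq start of *H2-K1* (34000333) the same matches lay at -125 to -115 and -104 to -96. *H2-D1* held the same pair at the same spacing, at -171 to -161 and -150 to -142. In *B2m* GAAANNGAAA lay at -139 to -130, just before the NF-kB match at -126 to -117, and in *Psmb8* TTCNNNGAA lay at -97 to -89.

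The classical heavy chains and the light chain were higher *in vivo* than *in vitro*, with the larger differences at 1 week. *H2-K1*, 1 of the 2 classical heavy chains of this strain, had an FPKM of 402 and 315 *in vivo* and 133 and 133 *in vitro* at 1 week. A week later it stood at 292 and 288 against 147 and 161. The 4 *in vivo* libraries all lay above the 4 *in vitro* libraries. The difference was 2.67-fold at 1 week (95% interval 2.22 to 3.22, adjusted p = 1.1e-04, limma with Benjamini-Hochberg adjustment, here and below) and 1.89-fold at 2 weeks (1.57 to 2.28, adjusted p = 6.4e-04). *H2-D1*, the other classical heavy chain, had an FPKM of 467 and 350 *in vivo* and 189 and 204 *in vitro* at 1 week. At 2 weeks the values were 378 and 358 against 207 and 229. Its groups did not overlap either, with a difference of 2.06-fold at 1 week (1.65 to 2.57, adjusted p = 0.001) and 1.69-fold at 2 weeks (adjusted p = 0.0035). *B2m*, the light chain shared by all class I molecules, was the most abundant member, with an FPKM of 1854 and 1302 *in vivo* and 796 and 775 *in vitro* at 1 week. At 2 weeks it stood at 1092 and 1076 against 783 and 914, so the *in vivo* libraries were still the higher ones but by less. The log2 difference of *B2m* was 0.98 at 1 week (adjusted p = 0.0033) and 0.36 at 2 weeks (95% interval -0.04 to 0.75, adjusted p = 0.11), and the latter turned to -0.20 with quantile normalization.

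*B2m* was present at 1.63 to 2.48 times the summed FPKM of the 2 heavy chains. This ratio was 2.13 and 1.96 *in vivo* against 2.48 and 2.29 *in vitro* at 1 week, and 1.63 and 1.67 against 2.21 and 2.35 at 2 weeks, so it was lower *in vivo* in every library. *H2-K1* was 0.773 to 0.901 times *H2-D1* in the *in vivo* libraries and 0.652 to 0.708 times in the *in vitro* libraries. Class I heavy chains resemble each other in sequence. Of the 50-base windows of the longest *H2-K1* transcript 8.79% occurred unchanged in another class I gene compared, and of those of *H2-D1* 11.3%. This comparison used protein-coding transcripts and did not include the tested genes *H2-K2* and *H2-Q5*, so the shares may be larger. Reads from shared stretches may be split between the genes, which was not tested.

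**Figure D1:**
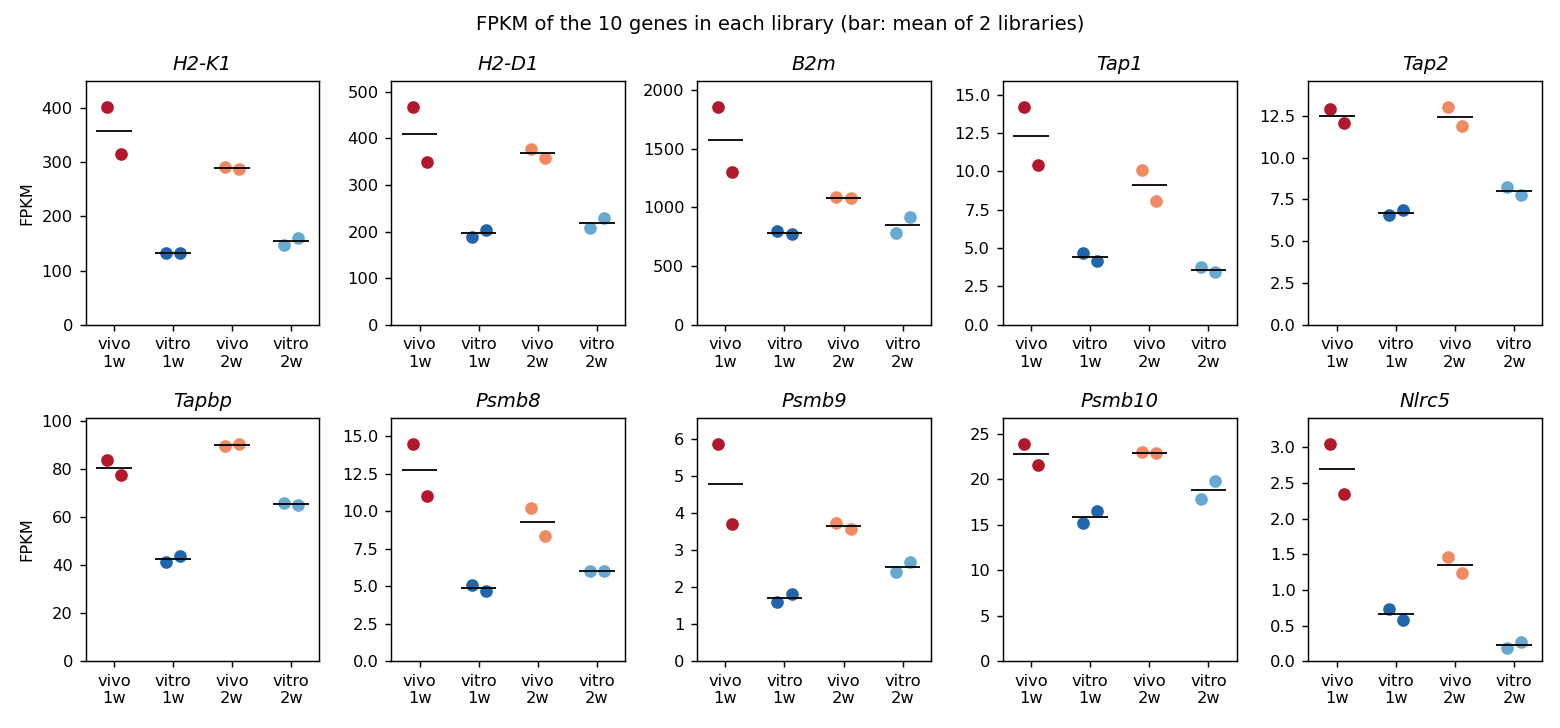
FPKM of each of the 10 genes in the 8 libraries. Each point is 1 library, black bars are the means of 2 libraries, and each panel has its own axis from 0. In all 10 panels the 4 *in vivo* points lie above the 4 *in vitro* points, as for 20.5% of all tested genes, with *H2-K1* at 315 to 402 against 133 at 1 week.

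The transporter and tapasin followed the heavy chains, each with its own course. *Tap1*, an ATP-driven subunit of the peptide transporter, had an FPKM of 14.2 and 10.4 *in vivo* and 4.65 and 4.19 *in vitro* at 1 week. Its values at 2 weeks were 10.1 and 8.09 against 3.78 and 3.42. It was 2.71-fold higher *in vivo* at 1 week (95% interval 2.04 to 3.60, adjusted p = 7.0e-04) and 2.48-fold at 2 weeks (1.87 to 3.29, adjusted p = 8.4e-04), so that its gap stayed close to the first one. *Tap2*, its partner subunit, had an FPKM of 12.9 and 12.1 against 6.55 and 6.89 at 1 week and of 13.03 and 11.9 against 8.24 and 7.74 at 2 weeks. The *Tap2* groups did not overlap, and the difference was 1.85-fold at 1 week (adjusted p = 2.1e-04) and 1.55-fold at 2 weeks (adjusted p = 7.8e-04). The *Tap1* level was 1.10 and 0.858 times that of *Tap2* *in vivo* at 1 week and 0.710 and 0.609 times *in vitro*. At 2 weeks it was 0.779 and 0.682 times *in vivo* and 0.458 and 0.442 times *in vitro*, again without overlap within the week. *Tapbp*, whose product bridges TAP and the empty heavy chain, had an FPKM of 83.7 and 77.3 *in vivo* and 41.4 and 43.8 *in vitro* at 1 week. A week later the values were 89.3 and 90.4 against 65.7 and 64.97. It was 1.89-fold higher *in vivo* at 1 week (adjusted p = 4.9e-05) and 1.38-fold at 2 weeks (adjusted p = 8.7e-04). The annotated *Tapbp* gene overlaps *Zbtb22* on the same strand over 3421 bases, and *Zbtb22* reached an FPKM of 17.5.

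The immunoproteasome subunits were higher *in vivo* by unequal amounts. *Psmb8*, which replaces *Psmb5* in the immunoproteasome, had an FPKM of 14.5 and 11.03 *in vivo* and 5.06 and 4.70 *in vitro* at 1 week. It stood at 10.2 and 8.34 against 6.02 and 6.05 at 2 weeks. The difference was 2.56-fold at 1 week (95% interval 2.01 to 3.27, adjusted p = 4.7e-04) and 1.52-fold at 2 weeks, where it missed the threshold (adjusted p = 0.013). *Psmb9*, which replaces *Psmb6*, had an FPKM of 5.88 and 3.71 against 1.60 and 1.83 at 1 week and of 3.73 and 3.59 against 2.41 and 2.69 at 2 weeks. It was 2.64-fold higher at 1 week (1.87 to 3.73, adjusted p = 0.002), with the higher *in vivo* library well above the other, and its log2 difference at 2 weeks was 0.51 (0.01 to 1.00, adjusted p = 0.085). *Psmb10*, which replaces *Psmb7*, had an FPKM of 23.9 and 21.6 against 15.2 and 16.5 at 1 week and of 22.97 and 22.9 against 17.8 and 19.8 at 2 weeks. It was the most abundant of the 3 and differed least, by 1.43-fold at 1 week (1.25 to 1.64, adjusted p = 0.0026) and by a log2 difference of 0.29 at 2 weeks (adjusted p = 0.025). Without the scaling between libraries the *Psmb10* difference at 2 weeks was -0.04.

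The constitutive counterparts were not called. None of *Psmb5*, *Psmb6* and *Psmb7* was called at either week, and their log2 differences at 1 week were -0.30 to -0.04. Those at 2 weeks were -0.34 to -0.16. *Psmb5* had an FPKM of 50.9 and 56.5 *in vivo* and 72.04 and 60.5 *in vitro* at 1 week, and *Psmb6* of 39.4 and 39.1 against 42.5 and 38.5. At 2 weeks *Psmb6* was lower *in vivo* by an adjusted p of 0.0074, at 41.6 and 39.8 against 49.3 and 51.7. A ratio within each library does not depend on the scaling between libraries, so the log2 ratio of each immunoproteasome subunit to its counterpart was compared over all 8 libraries. For each 100 units of *Psmb5* FPKM there were 28.4 and 19.5 of *Psmb8* *in vivo* and 7.02 and 7.77 *in vitro* at 1 week, and 14.3 and 12.9 against 8.23 and 7.61 at 2 weeks. For *Psmb9* per 100 of *Psmb6* the values were 14.9 and 9.50 against 3.76 and 4.75 at 1 week, and 8.96 and 9.02 against 4.89 and 5.21 at 2 weeks. For *Psmb10* per 100 of *Psmb7* they were 131 and 128 against 79.5 and 91.5 at 1 week, and 166 and 140 against 98.3 and 99.7 at 2 weeks. All 4 *in vivo* libraries lay above all 4 *in vitro* libraries for each of the 3 ratios. The log2 ratio was higher *in vivo* by 1.21 for *Psmb8*, 1.13 for *Psmb9* and 0.61 for *Psmb10*, each with an exact two-sided permutation p of 0.0286, the smallest that 4 libraries against 4 can give, and 0.0286 after adjustment over the 3 ratios. Libraries were exchanged without regard to week in this test, so its p-value does not account for differences between weeks. Within a single week the differences were 1.66, 1.44 and 0.60 at 1 week and 0.77, 0.82 and 0.62 at 2 weeks, where 2 libraries against 2 were too few for a test. The excess of *Psmb8* and *Psmb9* was thus smaller at 2 weeks, while that of *Psmb10* was of like size, and the change between weeks in these ratios was not tested.

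**Figure D2:**
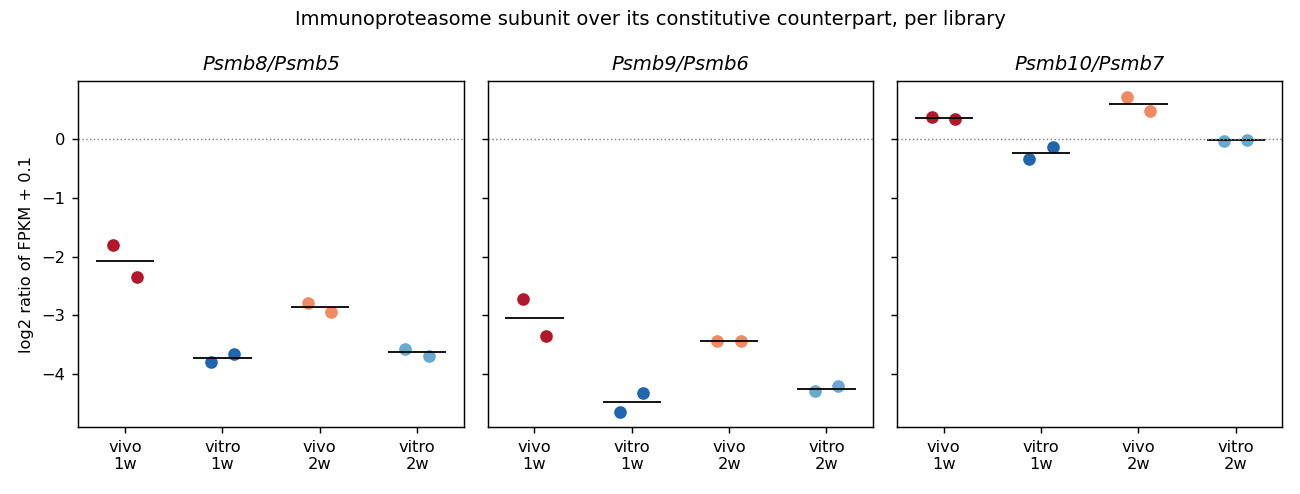
Log2 ratio of FPKM + 0.1 of *Psmb8* to *Psmb5*, *Psmb9* to *Psmb6* and *Psmb10* to *Psmb7* in each library. Points are libraries, black bars are means of 2 libraries, and the dotted line at 0 marks equal levels. The *in vivo* points lie above the *in vitro* points in all 3 panels, by 1.21, 1.13 and 0.61 on average.

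*Nlrc5*, whose product has no DNA-binding domain of its own and drives class I promoters through RFX, NF-Y and CREB/ATF proteins, was the least abundant member and differed most. It had an FPKM of 3.05 and 2.35 *in vivo* and 0.734 and 0.583 *in vitro* at 1 week. At 2 weeks the values were 1.47 and 1.24 against 0.187 and 0.268. The groups did not overlap at either week, and the lowest library still held 22 fragments. The difference was 3.68-fold at 1 week (95% interval 2.45 to 5.53, adjusted p = 0.0011) and 4.45-fold at 2 weeks (2.96 to 6.69, adjusted p = 4.5e-04) on the scale of FPKM + 0.1. With a pseudocount of 1 the log2 difference at 2 weeks was 0.94 in place of 2.16 and fell under the size threshold.

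Over the 10 genes, 6 were called higher *in vivo* at 1 week (*H2-K1*, *H2-D1*, *Tap1*, *Psmb8*, *Psmb9* and *Nlrc5*) and none lower. Of all tested genes 7.79% were called higher and 5.07% lower at that week. At an adjusted p under 0.01 whatever the size, all 10 were higher, against 14.7% of all tested genes higher and 12.4% lower. This count was 6 without either *in vitro* library of that week, 7 without replicate 1 of the *in vivo* samples and 6 with only the 4 libraries of that week in the fit. At 2 weeks 2 were called higher (*Tap1* and *Nlrc5*) and none lower, against 9.02% higher and 8.05% lower of all tested genes, and 6 were higher whatever the size (3 without the scaling between libraries), against 16.9% higher and 17.3% lower. Over both weeks 3 were called higher (*H2-K1*, *Tap1* and *Nlrc5*), against 8.63% of all tested genes, and 9 whatever the size (all but *B2m*, adjusted p = 0.011, and 5 genes without the scaling), against 17.6%. The median log2 difference of the 10 genes was 1.20 at 1 week and 0.62 at 2 weeks, beside -0.006 and -0.003 over all tested genes. Without the scaling between libraries these medians were 0.86 and 0.29, where those of all tested genes were -0.337 and -0.325. For all 10 genes the *in vivo* libraries lay above the *in vitro* libraries of both weeks, which held for 20.5% of all tested genes.

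The call of *H2-D1* at 1 week was lost without replicate 1 of the *in vivo* samples (log2 0.83) and without replicate 1 of the *in vitro* samples (adjusted p = 0.011), with quantile normalization (0.42) and without the scaling (0.70). That of *H2-K1* was lost with quantile normalization (0.89). That of *Psmb9* was lost without either *in vitro* library of that week (adjusted p = 0.018 and 0.012), and that of *Nlrc5* without *in vivo* replicate 1 (adjusted p = 0.013) or *in vitro* replicate 2 (adjusted p = 0.011). With only the 4 libraries of that week in the fit, *H2-D1* (adjusted p = 0.013) and *Psmb9* (adjusted p = 0.019) were not called. *B2m* gained a call without *in vivo* replicate 2 (log2 1.24). At 1 week replicate 1 of the *in vivo* samples was the higher of its pair for all 10 genes. Without the scaling, *Tap1* at 2 weeks had a log2 difference of 0.98 and was not called.

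**Figure D3:**
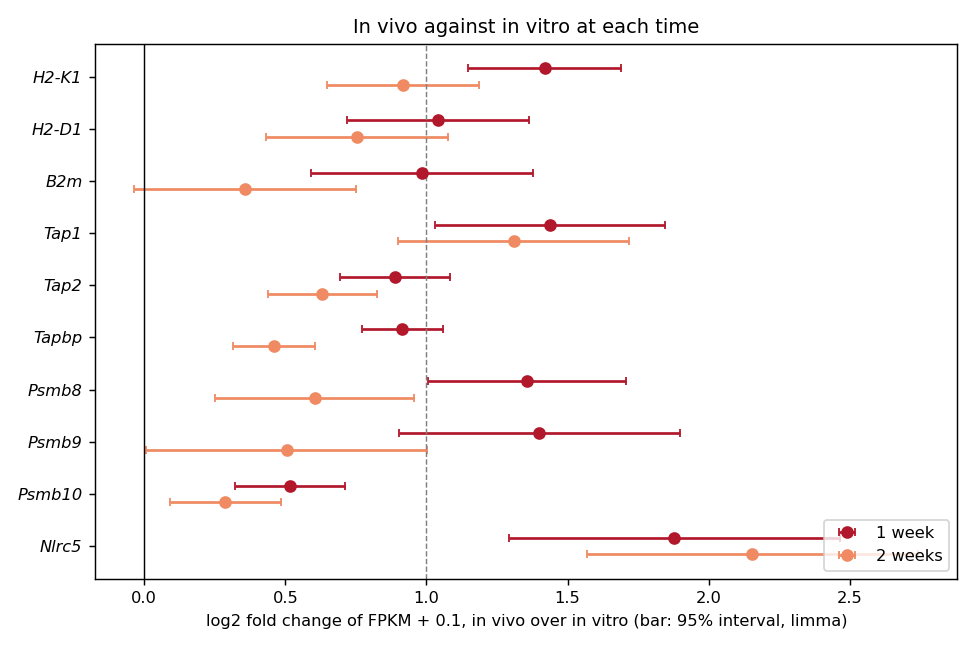
Log2 fold change of FPKM + 0.1 for *in vivo* over *in vitro* samples at 1 week and 2 weeks, with 95% intervals from limma. The dashed line marks the size threshold of 1. *Nlrc5* lies farthest to the right, at 1.88 and 2.16, and *Psmb10* closest to 0 at 1 week, at 0.52.

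The levels of the 10 genes spanned a wide range. *B2m* ranked above 99.8% of tested genes in the lowest of its libraries and *H2-D1* and *H2-K1* above 98.98% and 98.3%, while *Nlrc5* lay between the percentiles 5.34 and 41.4. In the *in vivo* samples at 1 week the order of mean FPKM was *B2m* (1578 ± 390, SD, n = 2), *H2-D1* (408 ± 83.2), *H2-K1* (358 ± 61.6), *Tapbp* (80.5 ± 4.55), *Psmb10* (22.8 ± 1.62), *Psmb8* (12.8 ± 2.45), *Tap2* (12.5 ± 0.597), *Tap1* (12.3 ± 2.68), *Psmb9* (4.80 ± 1.53) and *Nlrc5* (2.70 ± 0.493). The means of *H2-D1* and *H2-K1* differed by less than the SD of either, as did those of *Psmb8*, *Tap2* and *Tap1* by less than the SD of *Tap1*. In the *in vitro* samples at 1 week *B2m* (785 ± 15.1), *H2-D1* (196 ± 11.1), *H2-K1* (133 ± 0.466), *Tapbp* (42.6 ± 1.66) and *Psmb10* (15.9 ± 0.886) kept their places. *Tap2* (6.72 ± 0.242), *Psmb8* (4.88 ± 0.254), *Tap1* (4.42 ± 0.323), *Psmb9* (1.71 ± 0.164) and *Nlrc5* (0.659 ± 0.107) followed.

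From 1 to 2 weeks the gap between the settings was smaller for 9 of the 10 genes, but no single change of the gap was called. The median change of the log2 difference was -0.37 over the 10 genes and -0.009 over all tested genes, with 0.573% of these called for a higher and 1.15% for a lower difference at 2 weeks. These shares rest on 90 and 181 genes, and leaving out 1 library left 1 to 37 and 1 to 49 (1 and 1 without *in vivo* 1-week replicate 1 or 2, *in vitro* 1-week replicate 1 or *in vitro* 2-week replicate 2). The lowest adjusted p belonged to *Tapbp* (-0.46, 95% interval -0.66 to -0.25, adjusted p = 0.024), followed by *Psmb8* (-0.75, adjusted p = 0.069), *H2-K1* (-0.50, adjusted p = 0.10) and *Psmb9* (-0.90, adjusted p = 0.11). *Nlrc5* was the exception, with 0.28 (-0.55 to 1.11, adjusted p = 0.66), and it turned to -0.21 with a pseudocount of 1. The means differed between weeks in both settings. *In vivo*, 8 of the 10 genes had a lower mean at 2 weeks, with a median log2 change of -0.32, and none was called, against 1.23% of all tested genes called higher and 0.949% lower. Without *in vivo* 1-week replicate 1 the median was -0.07 and 6 of the 10 were lower, and without replicate 2 it was -0.56 and 9 were lower. The *B2m* mean *in vivo* went from 1578 ± 390 to 1084 ± 11.3 (log2 -0.52, adjusted p = 0.08), that of *Psmb8* from 12.8 ± 2.45 to 9.27 ± 1.32 (-0.45, adjusted p = 0.087) and that of *Nlrc5* from 2.70 ± 0.493 to 1.35 ± 0.166 (-0.94, adjusted p = 0.047). *In vitro*, 8 of the 10 had a higher value at 2 weeks, with a median log2 change of 0.23, and none was called, against 2.76% called higher and 1.05% lower. With quantile normalization the median was 0.05 and 5 of the 10 were higher. *Tapbp* alone rose *in vitro* at an adjusted p under 0.01 whatever the size, from 42.6 ± 1.66 to 65.3 ± 0.499 (0.62, 95% interval 0.47 to 0.76, adjusted p = 0.0011), where 6.16% of all tested genes did so. It no longer met that threshold without *in vitro* 1-week replicate 1 (adjusted p = 0.012), without either *in vitro* 2-week library (0.013 each) or with only the *in vitro* libraries in the fit (0.017). *Nlrc5* went the other way *in vitro*, from 0.659 ± 0.107 to 0.228 ± 0.0574 (-1.22, -1.80 to -0.63, adjusted p = 0.015), which was not called. Over the alternatives the change ranged from -1.53 (limma voom on the recovered fragments, adjusted p = 0.0068) to -0.43 (pseudocount of 1, adjusted p = 0.053), and at the threshold of 0.01 it was called by limma voom and among protein-coding genes only (adjusted p = 0.005). *Nlrc5* and *Tap1* were the 2 members with a lower value at 2 weeks in both settings, *Tap1* by -0.42 *in vivo* and -0.29 *in vitro* (adjusted p = 0.15 and 0.27).

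**Figure D4:**
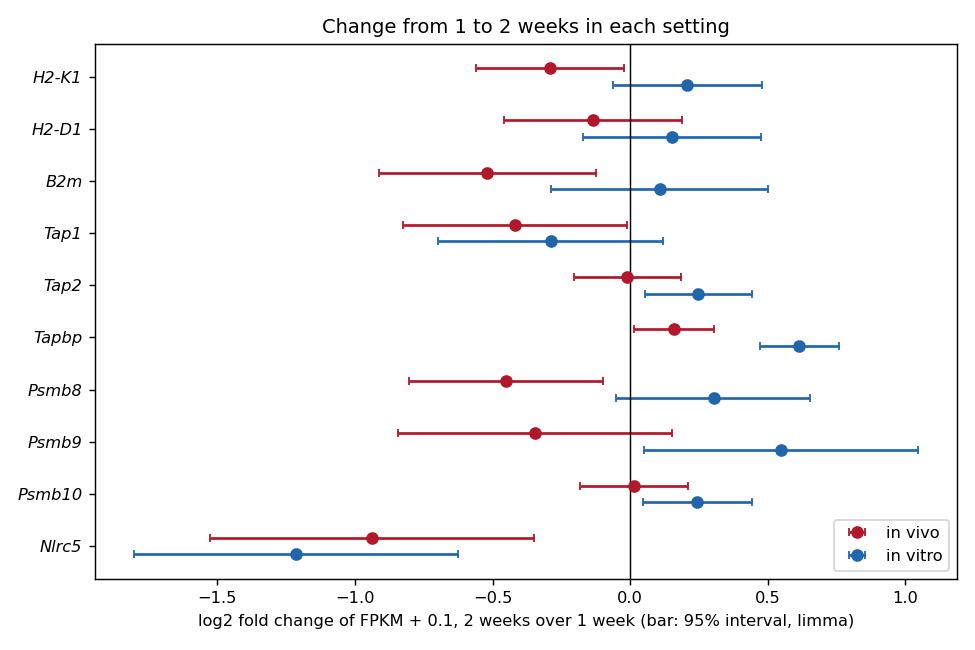
Log2 fold change of FPKM + 0.1 from 1 to 2 weeks within the *in vivo* and within the *in vitro* samples, with 95% intervals from limma. *Tapbp* *in vitro* lies at 0.62 with its interval clear of 0, and *Nlrc5* lies at -0.94 *in vivo* and -1.22 *in vitro*.

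The wider pathway was read from lists chosen by role. Nonclassical (class Ib) heavy chains sit beside the classical ones in the MHC and present narrower sets of ligands. Of 27 such genes measured, 11 were tested, with 5 called higher *in vivo* at 1 week and 4 at 2 weeks, with none lower and medians of 1.33 and 1.29. Among all tested genes 7.79% were called higher and 5.07% lower at 1 week, and 9.02% and 8.05% at 2 weeks. *H2-Q6* had an FPKM of 22.9 and 13.7 *in vivo* and 0.779 and 0.706 *in vitro* at 1 week. A week later its values were 6.63 and 6.47 against 0.589 and 0.564 (log2 4.40 and 3.30, adjusted p = 1.6e-05 and 4.2e-05). *H2-Q7*, which encodes a GPI-anchored class Ib molecule, had 8.89 and 5.94 against 0.426 and 0.361 at 1 week and 3.39 and 2.89 against 0.203 and 0.310 at 2 weeks (log2 3.90 and 3.19). *H2-Q4* had 49.9 and 33.4 against 7.63 and 7.89 at 1 week and 31.1 and 28.3 against 7.38 and 10.1 at 2 weeks (log2 2.38 and 1.77). All 3 were far apart between the settings in every library of both weeks. *H2-Q5* also was called at 1 week, but 1 *in vitro* library held 1 fragment, so its fitted fold depends on the pseudocount and only its FPKM of 9.02 and 7.09 against 0.0408 and 0.421 is given. *H2-T23*, which encodes Qa-1, a ligand of NK cell receptors, had 59.4 and 44.6 against 25.03 and 21.4 at 1 week and was called at both weeks (log2 1.15 and 1.08). Sharing of sequence is larger here, since 20.1% of the 50-base windows of *H2-Q7* and 18.8% of those of *H2-Q6* occurred in another class I gene compared. *H2-K2* and *H2-Q5* were not in that comparison, so the shares may be larger. The split of reads among the *H2-Q* genes is thus uncertain. Class I-like genes outside the MHC did not move as a block. Of 6 tested none was called at 1 week, and at 2 weeks *Mill2* was called higher (log2 1.53) and *Cd1d1* (-1.72) and *Procr* (-1.64) lower.

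Peptide loading in the endoplasmic reticulum leans on general chaperones. Of 13 tested genes of this list 1 was called higher at 1 week and 2 at 2 weeks, none lower, with medians of 0.42 and 0.49. The shares of all tested genes called higher were 7.79% and 9.02%. At an adjusted p under 0.01 whatever the size, 9 and 8 of the list were higher, against 14.7% and 16.9% of all tested genes. *Hspa5* (BiP, the main chaperone of the endoplasmic reticulum) was called at both weeks, with an FPKM of 416 and 498 against 197 and 194 at 1 week (log2 1.22) and 412 and 399 against 176 and 189 at 2 weeks (1.16). *Calr*, which holds the heavy chain in the loading complex, had 473 and 518 against 258 and 250 at 1 week (0.96, adjusted p = 8.5e-05) and 499 and 537 against 216 and 217 at 2 weeks (1.26, called). *Pdia3* (ERp57, the disulfide isomerase paired with tapasin) had log2 differences of 0.86 and 0.93 (adjusted p = 1.3e-04 and 7.4e-05). *Erap1*, which trims peptides, had 0.63 and 0.56 (adjusted p = 0.0046 and 0.0062), and *Tapbpl*, a tapasin relative, 0.56 and 0.49 (adjusted p = 0.0081 and 0.012). *Canx* (calnexin) had -0.01 and 0.16, neither past the threshold. *Hspa5*, *Calr*, *Pdia3* and *Canx* serve protein folding at large, so the list is not specific to class I.

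The rest of the proteasome gave no calls in either direction. Of all tested genes 7.79% were called higher and 5.07% lower at 1 week, and 9.02% and 8.05% at 2 weeks. Of 11 tested subunits of the 20S core outside the catalytic ones the log2 differences at 1 week were -0.27 to 0.13, and 1 gene was lower at an adjusted p under 0.01 whatever the size. Those at 2 weeks were -0.47 to -0.15, with 5 genes lower by that rule. The shares of all tested genes lower by that rule were 12.4% at 1 week and 17.3% at 2 weeks. Among 10 tested activators and assembly factors none was called at either week, and 1 was lower at 2 weeks by that rule. *Psme1* and *Psme2*, which form the PA28 cap often raised by interferon-γ, had log2 differences of 0.50 (adjusted p = 0.013) and 0.11 at 1 week and of -0.09 and -0.51 at 2 weeks, none past the threshold. Of 9 cytosolic peptidases none was called, and their medians were -0.15 and -0.24. At an adjusted p under 0.01 whatever the size, 1 peptidase was lower *in vivo* at 1 week and 4 at 2 weeks, and none was higher.

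Of 15 tested regulators 3 were called at 1 week, all higher *in vivo*. At 2 weeks 2 were higher and 1 was lower, with medians of 0.38 and 0.20. The shares of all tested genes called were 7.79% higher and 5.07% lower at 1 week, and 9.02% and 8.05% at 2 weeks. *Stat2* and *Irf9*, which act in the ISRE-binding complex, were called higher *in vivo* at both weeks. *Stat2* had 15.9 and 10.98 against 2.12 and 2.71 at 1 week and 9.63 and 8.36 against 2.39 and 2.25 at 2 weeks (2.41 and 1.91), and *Irf9* had 13.6 and 8.74 against 2.11 and 2.35 and then 10.95 and 8.69 against 2.51 and 2.72 (2.24 and 1.86). *Nfkb1*, a subunit of NF-kB, was called at 1 week (1.07) and had 0.70 at 2 weeks (adjusted p = 9.1e-04). *Irf1*, a direct activator of class I and immunoproteasome genes, changed its direction. It had an FPKM of 41.1 and 39.6 *in vivo* and 27.1 and 29.8 *in vitro* at 1 week (log2 0.50, adjusted p = 0.0066), and of 35.03 and 29.04 against 67.7 and 72.96 at 2 weeks (-1.14, adjusted p = 1.3e-04, called lower). The change in its gap between weeks was -1.64 (adjusted p = 0.0034), and it was not called without any 1 of the *in vivo* 1-week and *in vitro* libraries (adjusted p = 0.015 to 0.025). None of the DNA-binding RFX partners of NLRC5 passed the threshold. *Rfx5* had log2 differences of -0.22 and -0.28, *Rfxap* of 0.56 and 0.31, *Rfxank* of 0.69 and -0.17, and *Irf2*, another IRF factor, of 0.20 and 0.01. *Ciita*, the class II counterpart of *Nlrc5*, was rare, at an FPKM of 0.233 to 0.808 *in vivo* and 0.0341 to 0.152 *in vitro*, with log2 differences of 1.65 and 1.91 that missed the threshold (adjusted p = 0.025 and 0.012). It passed the filter for testing through the *in vivo* libraries alone.

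**Figure D5:**
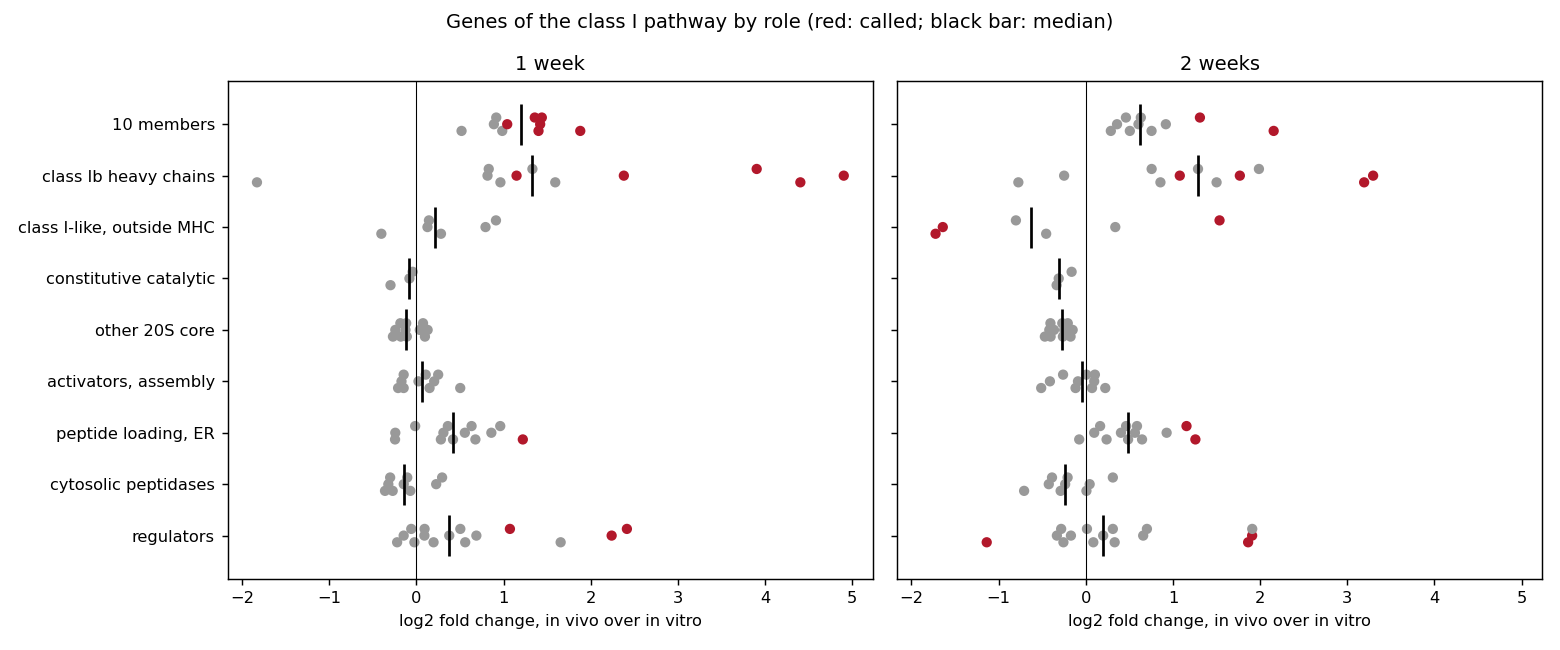
Log2 difference of *in vivo* from *in vitro* samples for every tested gene of the pathway, by role, at 1 week and 2 weeks. Red points were called, grey points were not, and black bars are medians. The 10 members (medians 1.20 and 0.62) and the class Ib heavy chains (1.33 and 1.29) lie right of 0, and the constitutive proteasome lists lie at or just left of it.

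Genes of other cell types moved with the same comparison, and their part in the class I result was not tested. The summed FPKM of 16 macrophage and myeloid markers was 3058 to 3547 *in vivo* against 5788 to 6591 *in vitro* at 1 week and 2199 to 2653 against 5486 to 6732 at 2 weeks. *Lyz2* made up much of this sum, at 1453 and 1331 *in vivo* against 3574 and 4014 *in vitro* at 1 week. In that list 1 gene (*Fcgr1*) was called higher and 1 lower at 1 week, and 3 were lower at an adjusted p under 0.01 whatever the size. At 2 weeks 10 were called lower and none higher. Among all tested genes 7.79% were called higher and 5.07% lower at 1 week, and 9.02% and 8.05% at 2 weeks. The 8 endothelial markers, whose cells carry much class I, summed to 87.2 to 99.8 against 22.5 to 23.6 at 1 week and to 85.9 to 95.04 against 53.003 to 62.2 at 2 weeks, with 7 called higher at 1 week and 3 at 2 weeks. This sum moved in the same direction as the 10 genes, with a gap that also was narrower at 2 weeks. The courses behind the narrower gaps differed. From 1 to 2 weeks the median log2 change of the 8 endothelial markers was -0.078 *in vivo* and 1.565 *in vitro*, where 6 were called higher. The median change of the 10 genes was -0.32 *in vivo* and 0.23 *in vitro*, with none called. The 11 fibroblast markers summed to 11025 to 14029 *in vivo* and 2437 to 3664 *in vitro* over both weeks. Matrix genes such as *Col1a1* (log2 2.36 at 1 week) and *Postn* (3.46) were higher *in vivo*, whereas *Thy1* (-0.75, adjusted p = 0.0019) and *Ddr2* (-0.62, adjusted p = 6.4e-04) were lower at 1 week and *Pdgfra* had 0.06 (adjusted p = 0.46). The sums were lower *in vivo* for cardiomyocyte markers, 8 genes at 9.90 to 22.5 against 111 to 634. The 13 T, NK and B cell markers summed to 3.07 to 3.95 *in vivo* against 0.786 to 1.52 *in vitro* at 1 week, and to 1.52 to 1.74 against 1.20 to 1.88 at 2 weeks. This low sum thus was higher *in vivo* at 1 week and overlapped at 2 weeks. In that list 11 genes were below an FPKM of 1 in every library, *Cd3e* was at 0.0837 or less, and the B cell gene *Cd79b* had a log2 difference of 2.84 at 1 week (adjusted p = 0.014). *Cd79b* was at an FPKM of 0.140 or less *in vitro* and passed the filter for testing through the *in vivo* libraries alone. The 6 dendritic markers summed to 4.77 to 6.38 in all libraries with no order by group.

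Across the 8 libraries, the log2 levels of the other members followed *H2-K1* with a Pearson r of 0.992 for *H2-D1*, 0.977 for *Psmb8*, 0.968 for *Tap2*, 0.953 for both *Tap1* and *Psmb9*, 0.933 for *B2m*, 0.930 for *Psmb10*, 0.862 for *Nlrc5* and 0.856 for *Tapbp*. Of 11443 protein-coding genes whose mean FPKM was 1 or higher, the 5 most like *H2-K1* were *Gbp3* (0.996), *H2-Q4* (0.996), *Irgm2* (0.995), *Phf11d* (0.995) and *Ly6e* (0.994). By the same r, *H2-D1* ranked 7, *Psmb8* 72, *Tap2* 135, *Psmb9* 290 and *Tap1* 291. *B2m* ranked 545, *Psmb10* 578, *Nlrc5* 1415 and *Tapbp* 1482, so many genes outside the pathway followed *H2-K1* more closely than these did. These values describe 8 libraries that fall into an *in vivo* and an *in vitro* cluster, share their scaling and give no independent evidence of a shared course. Of 57 other tested genes between *H2-K1* and *H2-D1* on chromosome 17, 9 were called at 1 week, all higher. The calls at 2 weeks were 10 higher and 3 lower, with medians of 0.17 and 0.06. Among all tested genes 7.79% were called higher and 5.07% lower at 1 week, and 9.02% and 8.05% at 2 weeks.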

How the data were processed

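RNA was taken from sorted eGFP+ cells (8 libraries, 2 in each of 4 groups), and libraries were made with the SMARTER mRNA-Seq kit. The submitters' processing notes name CASAVA, HISAT2 2.0.5 and the build mm10, and the counting tool and strand setting are not given in the sources used here. The authors deposited FPKM per gene, which include a scaling between libraries. Of gene identifiers shared with GENCODE vM21 (GRCm38), 98.3% had the same start and end. FPKM times gene length gave whole fragments for 100% of values above 0 (within 0.01), with 12304242 to 14546904 fragments per library. Limits from fragments cover counting error only.

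log2(FPKM + 0.1) was fitted with limma 3.58.1 in R 4.3.3 (all 8 libraries, 4 groups, intensity trend) for 15708 genes (2 or more libraries at an FPKM of 0.5 or higher), with Benjamini-Hochberg adjustment over all of them. A fold change on this scale understates the change of low genes. Calls needed a log2 difference beyond 1 in size and an adjusted p under 0.01. The difference over both weeks had week as a covariate. Ratios of immunoproteasome to constitutive subunits were compared by exact two-sided permutation with scipy 1.17.1, without regard to week. On simulated data for the comparison at 1 week over 15708 genes, 73 of 100 genes changed by 1.5 on the log2 scale and 93 of 100 changed by 3 were called, with 1 false call.

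The members and lists were chosen with earlier results of these data known. Named were all members, fixed partner and regulator genes, the called genes of other lists with the largest change (up to 4 class Ib, up to 3 in other lists), and the 5 genes most like *H2-K1*. The class Ib gene *H2-T23* was named beyond those 4. Not every listed regulator is reported here. The promoters of *H2-K1* and *H2-D1* and the motif GAANNGAAA were added after the first search. Alternatives were other pseudocounts, filters, scalings and thresholds, limma voom on recovered fragments, no trend, fewer libraries, protein-coding genes only, each library left out, and the replicate number as a block. Comparisons that share libraries are not independent.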

Additional observations from a re-analysis of the deposited data

Results flagged for a closer look

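A pair of genes of the wider pathway had a gap of *in vivo* from *in vitro* samples that itself differed between weeks in the interaction contrast of limma. For *Irf1* the log2 difference was 1.64 lower at 2 weeks than at 1 week (change -1.64, adjusted p = 0.0034), going from 0.50 to -1.14. For *Procr*, a class I-like gene outside the MHC, the change was -1.92 (adjusted p = 0.0037), from an FPKM of 6.31 and 5.78 *in vivo* against 4.86 and 5.04 *in vitro* at 1 week to 4.41 and 3.34 against 12.1 and 12.2 at 2 weeks. Neither change was called without any 1 of the *in vivo* 1-week libraries or of the *in vitro* libraries (adjusted p = 0.015 to 0.025 for *Irf1* and 0.018 to 0.029 for *Procr*), with the replicate block (0.011 for both) or with no intensity trend (0.014 for both), and that of *Procr* was not called without a filter on low values (0.011). None of the 10 members met this threshold.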

How the results depend on the processing

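The count of members called higher was 6 at 1 week and 4 to 7 over the alternatives, 2 at 2 weeks and 1 to 2, and 3 over both weeks and 2 to 5. At 2 weeks it was 1 with a pseudocount of 1 and 1 on FPKM without the scaling between libraries. Leaving out 1 library gave 3 to 5 over both weeks, with 5 without *in vitro* 2-week replicate 2. No member was called lower in any alternative of the *in vivo* against *in vitro* comparisons, and the count of members lower at 2 weeks *in vitro* went from 0 to 1 (*Nlrc5*) by limma voom, among protein-coding genes only and at an adjusted p under 0.05.

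With the replicate block, 6 members were called higher at 1 week, as without it. The numbers were not treated as pairs, since deviations of same-numbered libraries correlated at -0.020 and -0.022. The replicate block moved the number of genes called for a difference between weeks from 90 higher and 181 lower to 11 and 16.

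The log2 ratios ranged from 0.989 to 1.367 (*Psmb8*), 0.957 to 1.198 (*Psmb9*) and 0.530 to 0.655 (*Psmb10*) with 1 library left out, where 3 libraries against 4 cannot give a permutation p under 0.0571.

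Of 1180 single-gene values, 1141 kept direction and side of the threshold, 15 lost it, 9 gained it and 15 changed sign. Sign changes at 2 weeks were *B2m* with quantile normalization (-0.197) and *Psmb10* without the scaling (-0.043). For the difference between weeks they were *Nlrc5* with a pseudocount of 1 (-0.214) and *Tap1* without *in vivo* 1-week replicate 1 (0.093) or *in vivo* 2-week replicate 2 (0.033), in a range of -0.352 to 0.093 with 1 library left out. For the change over time *in vivo* they were *Psmb10* with quantile normalization (-0.031), without the scaling (-0.026) and without *in vivo* 1-week replicate 2 (-0.058), *H2-D1* (0.073) and *Tap2* (0.038) without *in vivo* 1-week replicate 1, and *Tap2* without *in vivo* 2-week replicate 2 (0.058). With 1 library left out these changes ranged from -0.058 to 0.087 for *Psmb10*, -0.345 to 0.073 for *H2-D1* and -0.078 to 0.058 for *Tap2*. *In vitro* they were *H2-K1* (-0.082), *H2-D1* (-0.140) and *B2m* (-0.047) with quantile normalization, and *B2m* (-0.004, up to 0.219) with 1 *in vitro* 2-week library left out. The cause was not tested. With 2 libraries per group, the spread rests on few degrees of freedom, and *Nlrc5* rests on as few as 22 fragments.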
